A study of Homo sapiens with 4 samples.

Results

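The enzymes of drug and aldehyde metabolism described here are the cytochromes P450 of families CYP1 to CYP4, the UDP-glucuronosyltransferases (UGT) of the UGT1A and UGT2 families, the cytosolic sulfotransferases (SULT) and the aldehyde dehydrogenases (ALDH). Their genes were chosen by symbol. A probe set, the group of short probes that reports a transcript, was taken when it is annotated to exactly 1 such symbol, and antisense genes and pseudogenes were left out. This gave 127 probe sets for 64 genes, of 54613 probe sets tested and 19775 genes with a probe set of 1 symbol. There are 63 probe sets for 30 P450 genes, 9 for 7 UGT genes, 16 for 8 SULT genes and 39 for 19 ALDH genes. RNA levels were read from 4 oligonucleotide arrays (GeneChip U133 Plus 2.0), with 2 for the COLO-320DM line and 2 for the 320IWR line. COLO-320DM is an established human colorectal cancer cell line. 320IWR is a subline that was grown out of it under continuous IWR-1, an inhibitor of the poly(ADP-ribose) polymerase tankyrase, until it resisted the drug. It is 1 selected line and not a set of independent selections, and whether the 320IWR cultures held IWR-1 at harvest is not given in the sources used here. The comparison asks how the transcripts of enzymes that can inactivate small molecules differ between the resistant line and its parent.

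P450 enzymes are heme proteins that insert oxygen into lipids, steroids, vitamins and drugs. UGT and SULT enzymes then couple glucuronic acid or sulfate to such products, which makes them easier to excrete. ALDH enzymes oxidize reactive aldehydes to acids, both in detoxification and in the metabolism of amino acids, fats, folate and retinoids. Liver and small intestine are the tissues best known for the P450, UGT and SULT genes of drug metabolism, whereas many ALDH genes are active in mitochondria of most cells.

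The signals of these enzymes' transcripts differed little between the lines. The 2 genes at least 2-fold apart without overlap between the arrays of the lines were lower in 320IWR cells. By that measure more of all genes were lower than higher, too. Of the 127 probe sets, 1 fell and 0 rose by limma's test. A probe set is said to rise or fall at a Benjamini-Hochberg adjusted p under 0.05 over all probe sets together with at least a 2-fold difference. Over all probe sets tested, 0.258% were called lower and 0.112% higher, and 0.37% in either direction. The members' count of 1 in 127 is near this background. The probe set that fell belongs to ALDH5A1. At an unadjusted p under 0.05 there were 15 member probe sets (11.8%), against 9.71% of all probe sets. A difference of at least 2-fold with no overlap between the arrays of the lines was found for 3 member probe sets that were lower, namely both of ALDH1A2 and the one of ALDH5A1 that fell, and for 0 that were higher. The same was true of 1.33% and 0.577% of all probe sets. Counted by the brightest probe set of each gene, 32 member genes were lower and 32 higher in 320IWR cells, with a median log2 fold change of -0.002, beside a median of 0.017 over all genes. By the same count 1 gene fell and 0 rose, against 0.399% and 0.192% of all genes. At least 2-fold without overlap, 2 genes were lower (ALDH1A2 and ALDH5A1) and 0 higher, against 1.91% and 0.855% of all genes. Without regard to size, both 320IWR arrays lay below both parental arrays for 15 of the 64 genes and above them for 7, where 17.5% and 21.0% of all genes did. The labels do not tell whether replicates came from separate cultures. The p-values therefore cover the variation between these 4 arrays, part or all of which may be technical. In such bulk RNA, fewer cells of a type and less RNA per cell cannot be told apart.

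**Figure D1:**
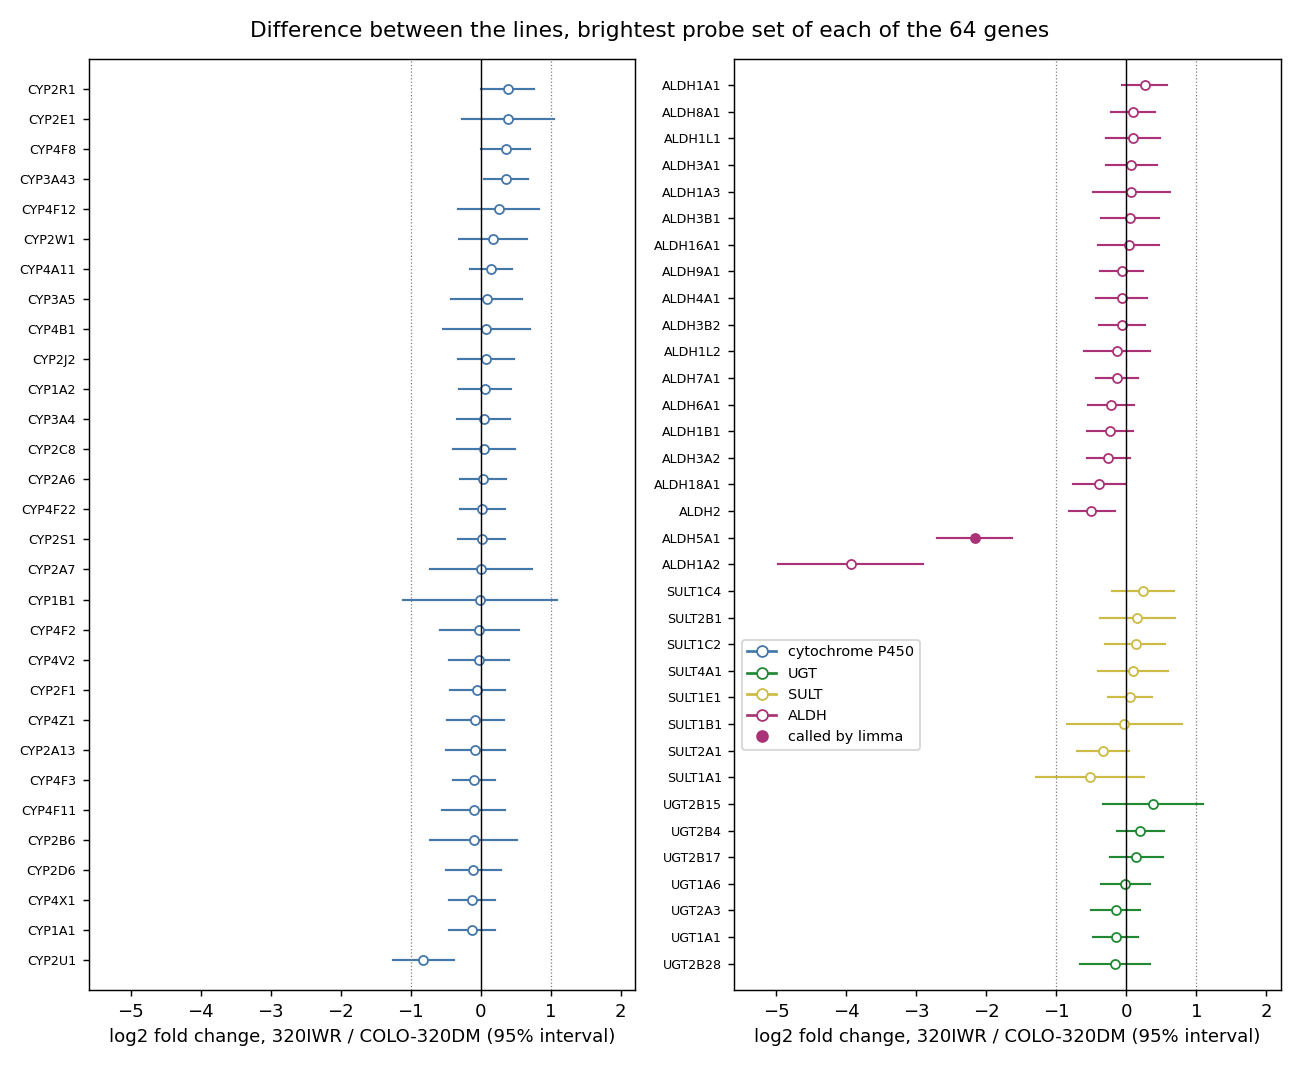
Log2 fold change of 320IWR over COLO-320DM cells on the horizontal axis for the brightest probe set of each of the 64 genes, with its 95% interval from limma as a line. Dotted lines mark 2-fold differences. ALDH5A1 (filled, -2.17) was called by limma, ALDH1A2 (-3.94) was the lowest value and not called, and the values of the other genes lie between -0.82 and 0.39.

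The intervals show how much of a difference in signal remained possible. Of the 64 genes, 41 were dim in both lines (mean log2 intensity under 6 in each line). Without detection calls, a narrow interval for a dim gene bounds its signal and does not exclude a larger difference in transcript. For 57 of the 64 genes (89.1%) the 95% interval of the log2 fold change lay within a 2-fold difference in either direction, beside 87.6% of all genes. The 7 others were ALDH1A2, ALDH5A1, CYP2U1, CYP1B1, CYP2E1, SULT1A1 and UGT2B15. In 3 of them, CYP1B1, CYP2E1 and UGT2B15, the interval reached a 2-fold higher value in 320IWR cells.

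The start sites of the genes with the largest differences are shown because ALDH1A2 and ALDH5A1 are the genes for which the lines differed by more than 2-fold. Each sequence runs from 250 bases before to 50 bases after a transcription start in RefSeq (GRCh38.p14), 5′ to 3′ on the strand of the gene, with CG pairs in capitals. RefSeq gives ALDH1A2 a pair of starts, with windows at chr15:58065662-58065961 and at chr15:58013974-58014273, both on the minus strand. For ALDH5A1 it gives a start with its window at chr6:24494719-24495018 on the plus strand.
ALDH1A2, first start: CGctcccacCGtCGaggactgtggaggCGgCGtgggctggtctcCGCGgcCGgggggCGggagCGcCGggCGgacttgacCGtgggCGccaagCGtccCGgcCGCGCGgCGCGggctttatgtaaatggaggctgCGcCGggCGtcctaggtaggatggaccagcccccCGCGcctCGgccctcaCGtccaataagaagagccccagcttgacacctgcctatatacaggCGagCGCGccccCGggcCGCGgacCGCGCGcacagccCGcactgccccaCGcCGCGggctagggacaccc
ALDH1A2, second start: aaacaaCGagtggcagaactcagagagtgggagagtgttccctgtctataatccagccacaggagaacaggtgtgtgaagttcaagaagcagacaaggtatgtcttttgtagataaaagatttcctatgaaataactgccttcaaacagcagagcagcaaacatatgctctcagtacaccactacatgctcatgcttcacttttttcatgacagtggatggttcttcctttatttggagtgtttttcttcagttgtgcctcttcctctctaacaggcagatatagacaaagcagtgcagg
ALDH5A1: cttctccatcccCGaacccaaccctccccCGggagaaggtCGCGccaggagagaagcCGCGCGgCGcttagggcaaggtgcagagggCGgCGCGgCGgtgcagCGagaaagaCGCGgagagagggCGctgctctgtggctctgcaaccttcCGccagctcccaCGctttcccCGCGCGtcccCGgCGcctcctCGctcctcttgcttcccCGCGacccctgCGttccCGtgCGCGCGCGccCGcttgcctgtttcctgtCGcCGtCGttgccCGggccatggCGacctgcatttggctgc
The first ALDH1A2 window holds 41 CG pairs and that of ALDH5A1 holds 38, counts that 6.69% and 9.91% of 35116 windows of this length reach. The second ALDH1A2 window holds 1 CG pair, beside a median of 14 over all windows. CTTTG, the core bound by the TCF/LEF factors that act with β-catenin, was searched on both strands. It occurs 0 times in the first ALDH1A2 window and in that of ALDH5A1, and 1 time in the second ALDH1A2 window. Of all windows, 47.5% hold it. The arrays did not measure methylation or factor binding at these sites.

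ALDH5A1 encodes the mitochondrial succinic semialdehyde dehydrogenase, which completes the breakdown of the neurotransmitter GABA. Its brightest probe set, 203608_at, read 143 and 167 in the parental line and 29.0 and 40.5 in 320IWR cells. Both 320IWR values lay far below both parental values. The parental mean was 155 ± 17.4 and that of 320IWR cells 34.8 ± 8.16 (each SD, n = 2), which is 4.51-fold lower (log2 fold change -2.17, standard error 0.21, limma adjusted p = 0.0479). The other probe set of the gene, 203609_s_at, read 31.9 and 41.1 in COLO-320DM cells and 22.7 and 30.3 in 320IWR cells. Its arrays did not overlap either, but the difference was smaller (log2 fold change -0.46, standard error 0.21, limma adjusted p = 0.62). The call of 203608_at lies close to the threshold. It was lost when any single array was left out, with log2 fold changes between -2.41 and -1.93 and adjusted p of 0.161 and 0.17 without COLO-320DM replicates 1 and 2 and of 0.245 and 0.195 without 320IWR replicates 1 and 2. It was also lost with a trended robust prior (adjusted p = 0.053) and when probe sets with the suffix _x_at or _s_at were left out (0.0506). Without either 320IWR array limma called 0 of all probe sets, with 3756 and 3502 at an unadjusted p under 0.05.

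ALDH1A2, the retinaldehyde dehydrogenase that makes retinoic acid in embryonic tissues, showed the largest difference of the 64 genes but missed the threshold. Its brightest probe set, 207016_s_at, read 174 and 395 in the parental line and 17.3 and 16.9 in 320IWR cells. The parental arrays differed by 1.18 on the log2 scale from each other, while the 320IWR arrays were alike and low. The parental mean was 284 ± 156 and that of 320IWR cells 17.1 ± 0.298 (each SD, n = 2). From the means of the log2 values, the log2 fold change was -3.94 (95% interval -4.98 to -2.90, 15.3-fold lower, limma adjusted p = 0.056). The call changed with the arrays and settings used. Without COLO-320DM replicate 1 the log2 fold change was -4.53, and without replicate 2 it was -3.34. In these fits the spread comes only from the 320IWR arrays, so a test leaves out the difference between the parental arrays. Without 320IWR replicate 1 or 2 the probe set was not called, with log2 fold changes of -3.95 and -3.92. With all 4 arrays it was called under cyclic loess (limma adjusted p = 0.0442), with equal array medians (0.0496) and without dim probe sets (0.0473). It was also called when the replicate number entered as a block (0.0468), and it was not called with a trended robust prior (0.053). The second probe set, 207015_s_at, read 76.2 and 64.9 in COLO-320DM cells and 41.8 and 28.5 in 320IWR cells. It was 2.04-fold lower without overlap of the arrays (log2 fold change -1.03, 95% interval -1.61 to -0.44, limma adjusted p = 0.221). Both probe sets carry the suffix _s_at, so the gene was not tested when probe sets with that suffix were left out. The files give no detection calls, and the height of the 320IWR values above background is therefore unknown, as is the exact fold.

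The other genes of the ALDH1A group, which also oxidize retinaldehyde, did not share this difference. ALDH1A1, whose enzyme activity is used as a marker of stem-like tumour cells, had intensities of 2741 and 2616 in COLO-320DM cells and of 3046 and 3363 in 320IWR cells. It was slightly higher on both 320IWR arrays (log2 fold change 0.26, 95% interval -0.07 to 0.58, limma adjusted p = 0.652). ALDH1A3 was dim in both lines, with 11.0 and 11.2 in COLO-320DM cells and 14.1 and 9.63 in 320IWR cells in its brightest probe set, and the arrays overlapped (log2 fold change 0.07, 95% interval -0.48 to 0.62).

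**Figure D2:**
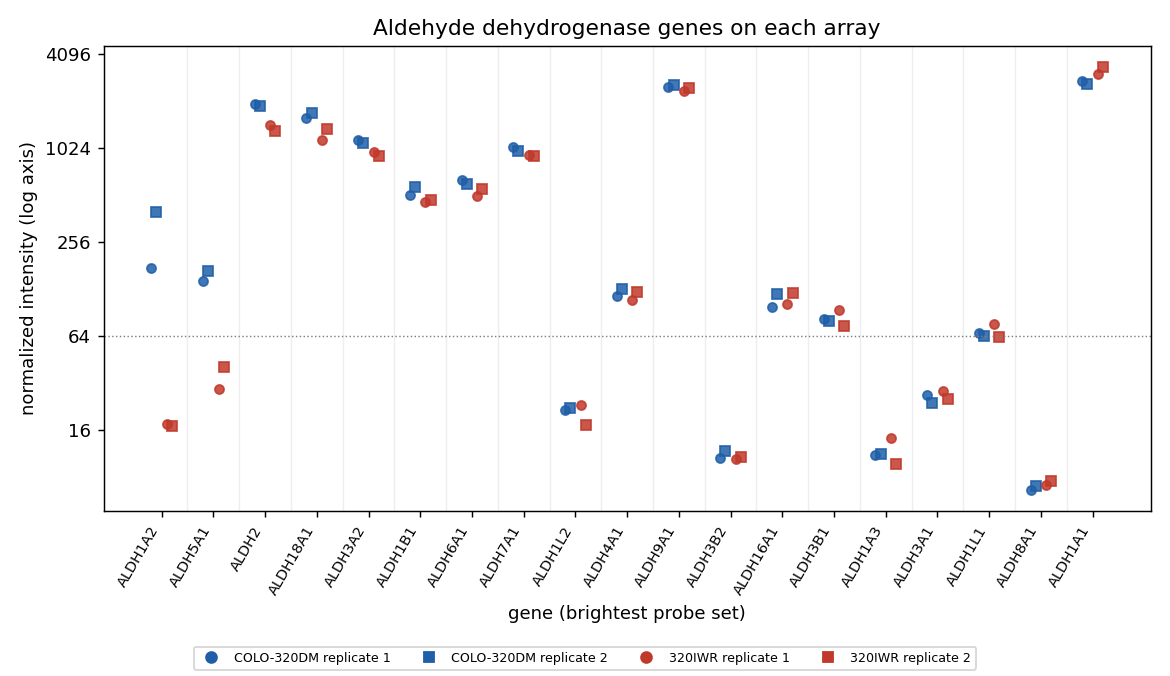
Normalized intensity (log axis) of the brightest probe set of each of the 19 ALDH genes on every array, ordered from the lowest to the highest log2 fold change, in blue for COLO-320DM and red for 320IWR, circles for replicate 1 and squares for replicate 2. The dotted line marks a log2 intensity of 6, below which a probe set is called dim here. ALDH1A2 and ALDH5A1 are apart by more than 2-fold, and most other genes that are not dim are slightly lower in 320IWR cells. ALDH1A1 (0.26), ALDH1L1 (0.09), ALDH3B1 (0.05) and ALDH16A1 (0.04) have log2 fold changes above 0.

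Among the other ALDH genes small differences in the same direction were frequent, but limma called none of them. Without ALDH1A2 and ALDH5A1, which were set aside after their values were seen, 12 of 35 ALDH probe sets (34.3%) lay below COLO-320DM on both 320IWR arrays and 4 (11.4%) above. Over all probe sets these shares were 16.1% and 19.5%. By brightest probe sets, 10 of these 17 genes were lower and 7 higher, with a median log2 fold change of -0.07. With ALDH1A2 and ALDH5A1 included, 16 of 39 probe sets (41.0%) lay below and 12 of 19 genes (63.2%) were lower, beside 45.8% of all genes. Several of these probe sets report the same gene. Fewer ALDH probe sets were dim (35.9%) than of all probe sets (58.2%), so the shares are not of like brightness. ALDH2, the mitochondrial enzyme that clears acetaldehyde, had intensities of 1961 and 1892 in COLO-320DM cells and of 1432 and 1304 in 320IWR cells (log2 fold change -0.50, 95% interval -0.82 to -0.17, limma adjusted p = 0.278). ALDH18A1, which makes the precursor of proline, read 1576 and 1697 in COLO-320DM cells and 1147 and 1351 in 320IWR cells (log2 fold change -0.39, limma adjusted p = 0.474). The value of its other probe set was -0.31, and again the arrays of the lines did not overlap. ALDH3A2, the fatty aldehyde dehydrogenase, was lower on both 320IWR arrays in all 3 of its probe sets, with log2 fold changes of -0.26, -0.36 and -0.33 (smallest limma adjusted p = 0.413). ALDH1B1, a mitochondrial relative of ALDH2, had -0.23 and ALDH6A1, an enzyme of valine breakdown, had -0.22, without overlap in their brightest probe sets. Of the other 4 probe sets of ALDH6A1, 3 lay between -0.18 and -0.11 with overlapping arrays, and the dimmest had 0.28 without overlap. ALDH7A1, which acts in lysine breakdown, had log2 fold changes of -0.14 and -0.22 in its brighter probe sets and 0.28 in the dimmest, so the direction of these small differences was not shared by every probe set of a gene. ALDH9A1, an enzyme of carnitine synthesis, read 2518 and 2568 in COLO-320DM cells and 2352 and 2483 in 320IWR cells (log2 fold change -0.07, 95% interval -0.38 to 0.23). The remaining genes had log2 fold changes between -0.13 and 0.10 in their brightest probe sets. Among them are the folate enzymes ALDH1L1 and ALDH1L2, the proline-breakdown enzyme ALDH4A1, and ALDH3A1, ALDH3B1, ALDH3B2, ALDH8A1 and ALDH16A1. A dim probe set of ALDH3B1 had 0.22, with overlapping arrays.

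Most P450 probe sets were dim in both lines and showed no difference that the arrays could resolve. Here a probe set is called dim when its mean log2 intensity is under 6 in each line, which holds for 53 of the 63 P450 probe sets (84.1%), 7 of 9 of UGT, 13 of 16 of SULT and 14 of 39 of ALDH (35.9%), beside 58.2% of all probe sets. Limma called 0 P450 probe sets, beside 0.37% of all probe sets. At an unadjusted p under 0.05 there were 8 (12.7%), beside 9.71% of all probe sets. The median log2 fold change of the 30 genes was 0.018. CYP1A1, which the aryl hydrocarbon receptor induces, read 44.4 and 40.2 in COLO-320DM cells and 39.3 and 38.1 in 320IWR cells (log2 fold change -0.13, 95% interval -0.45 to 0.20). CYP1B1, induced by the same receptor, differed more between replicates than between lines in its brightest probe set. Its intensities were 23.4 and 42.4 in COLO-320DM cells and 22.8 and 43.2 in 320IWR cells (log2 fold change -0.01, 95% interval -1.11 to 1.09). CYP3A4, the P450 that handles the largest range of drugs, read 105 and 87.4 against 93.9 and 103 in its brightest probe set, and the log2 fold changes of its 5 probe sets lay between 0.00 and 0.10. CYP3A5 read 8.87 and 6.65 in COLO-320DM cells and 8.90 and 7.50 in 320IWR cells (log2 fold change 0.09, 95% interval -0.42 to 0.59). CYP2D6, known for the metabolism of many basic drugs, read 106 on each parental array and 109 and 88.6 in 320IWR cells (log2 fold change -0.11, 95% interval -0.50 to 0.29). Many of these probe sets, of CYP3A4 and CYP2A6 for example, carry the suffix _x_at or _s_at, which marks probes that can also bind other transcripts, often of related genes, so their signal is not certain to come from 1 gene.

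Further P450 genes showed small differences. CYP1A2, the caffeine-metabolizing relative of CYP1A1, read 93.9 and 84.1 in COLO-320DM cells and 99.8 and 85.9 in 320IWR cells in its brightest probe set (log2 fold change 0.06). CYP2A6, which oxidizes nicotine, had values between -0.12 and 0.03 in its 4 probe sets, with overlapping arrays in each. CYP2J2, which makes epoxides of arachidonic acid, read 78.7 and 94.9 against 86.3 and 97.1 (log2 fold change 0.08). The other 3 probe sets of CYP1B1 had 0.02, 0.03 and 0.06, and in each of them replicate 2 was brighter than replicate 1 in both lines. Dim probe sets of CYP3A43 and CYP4F8 were higher without overlap, each with a log2 fold change of 0.36 (limma adjusted p = 0.435 and 0.504). The value of CYP3A43 comes from 1 of its 4 probe sets, while the other 3 lay between 0.03 and 0.07. In the 11 genes of the CYP4 family, many of which hydroxylate fatty acids, all 16 probe sets were dim.

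Differences that recurred in several probe sets of a P450 gene were seen for CYP2U1, CYP2R1, CYP4V2 and CYP2E1, none of which limma called. CYP2U1, which hydroxylates long-chain fatty acids, had intensities of 213 and 268 in COLO-320DM cells and of 128 and 145 in 320IWR cells in its brightest probe set (1.76-fold lower, log2 fold change -0.82, 95% interval -1.25 to -0.38, limma adjusted p = 0.202). In a second probe set, with 68.7 and 90.1 against 38.3 and 49.0, the log2 fold change was -0.86 (limma adjusted p = 0.259). In both probe sets each 320IWR array lay below each parental array. The other 2 probe sets of the gene were dim, with -0.17 and -0.09. CYP2R1, a vitamin D hydroxylase, was higher in 320IWR cells, with 385 and 355 in COLO-320DM cells and 526 and 445 in 320IWR cells (log2 fold change 0.39, 95% interval 0.01 to 0.76, limma adjusted p = 0.493). Its second probe set had 0.35, also without overlap, and its dim probe set had 0.13. CYP4V2, a fatty acid hydroxylase of the eye and other tissues, had log2 fold changes of 0.94, 0.47 and 0.45 without overlap in 3 probe sets, with a smallest limma adjusted p of 0.19. These were dim, the one with the largest value reading 10.3 and 7.57 against 17.5 and 16.2, and the brightest probe set of the gene had -0.03. CYP2E1, which oxidizes ethanol, had log2 fold changes between 0.10 and 0.44 in its 4 probe sets, all dim (smallest limma adjusted p = 0.445).

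**Figure D3:**
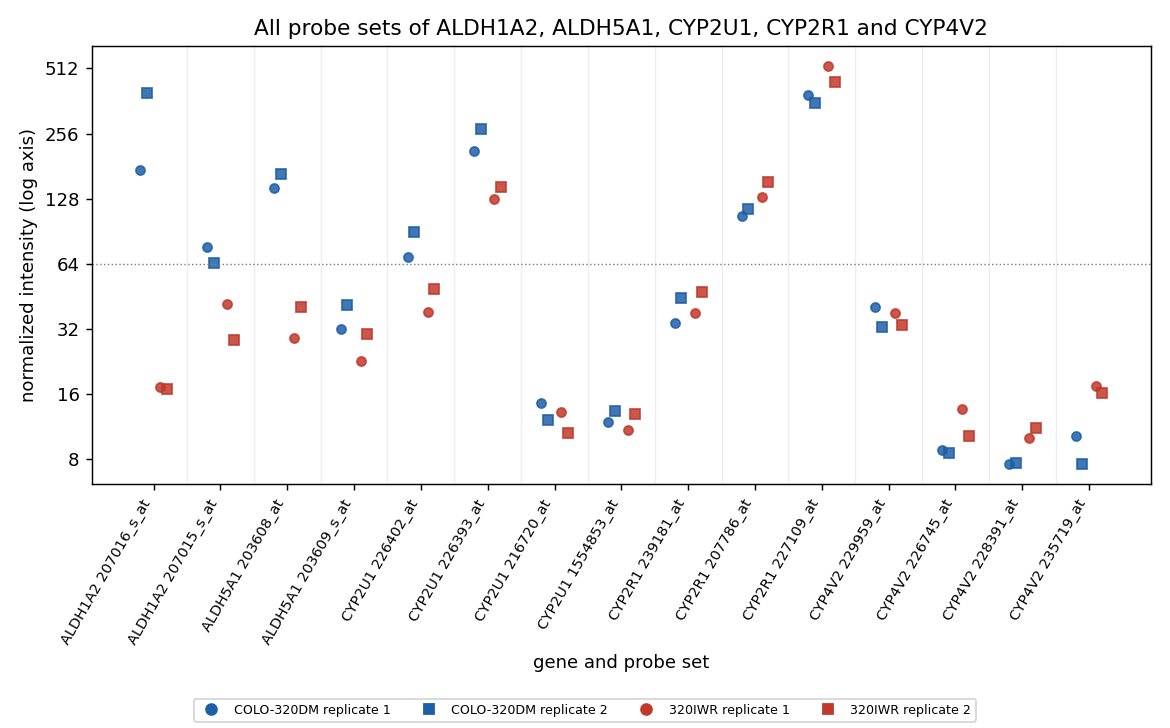
Normalized intensity (log axis) on every array of all probe sets of ALDH1A2, ALDH5A1, CYP2U1, CYP2R1 and CYP4V2, each named by its gene and array identifier, coloured blue for the parental and red for the resistant line. The brighter probe sets of ALDH1A2, ALDH5A1 and CYP2U1 are lower in 320IWR cells, those of CYP2R1 are higher, and the CYP4V2 probe sets that differ lie under the dotted line at a log2 intensity of 6.

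Of the sulfotransferases, limma called 0 of 16 probe sets, and 0 had an unadjusted p under 0.05. Over all probe sets these shares were 0.37% and 9.71%, so 0 calls in so few probe sets is near the background. SULT1A1, which sulfates phenols, was the gene with the largest value. Its intensities were 659 and 420 in COLO-320DM cells and 443 and 304 in 320IWR cells in its brightest probe set. In both lines replicate 1 was brighter than replicate 2, so the lines overlapped (log2 fold change -0.52, 95% interval -1.29 to 0.25, limma adjusted p = 0.735). Within the same-numbered arrays the log2 differences were -0.57 and -0.47. The probe set 238995_at, which does not end in _x_at, read 132 and 121 in COLO-320DM cells and 104 and 101 in 320IWR cells, without overlap (log2 fold change -0.30, limma adjusted p = 0.544). SULT1B1, a sulfotransferase of the gut, read 59.7 and 35.5 in COLO-320DM cells and 53.9 and 37.7 in 320IWR cells (log2 fold change -0.03). SULT4A1, a brain form, had 0.09 and overlapping arrays. SULT2A1, which sulfates steroids, was dim, with 15.2 and 18.0 against 12.8 and 13.5 in its brightest probe set (log2 fold change -0.33, limma adjusted p = 0.575). The median over the 8 SULT genes was 0.072.

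Of the glucuronosyltransferases, limma called 0 of 9 probe sets, and 0 had an unadjusted p under 0.05. With 0.37% and 9.71% of all probe sets, 0 calls among 9 is again near the background. UGT1A1, which conjugates bilirubin, read 13.3 and 14.9 in COLO-320DM cells and 12.8 and 12.4 in 320IWR cells (log2 fold change -0.15, 95% interval -0.48 to 0.17), and UGT1A6, which conjugates simple phenols, had -0.02. A further 7 probe sets report several UGT1A genes at once, which share their last exons, and had log2 fold changes between -0.30 and 0.12 (smallest limma adjusted p = 0.537). UGT2B15, an androgen-conjugating enzyme, read 129 and 124 in COLO-320DM cells and 215 and 126 in 320IWR cells in its brightest probe set, 207392_x_at. A single array, 320IWR replicate 1, stood above the other 3, and without it the log2 fold change was 0.00 in place of 0.38. Its other probe sets had overlapping arrays, with 0.15 for 216687_x_at and -0.16 for 217175_at, which was dim. UGT2B28 had -0.17 and overlapping arrays.

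**Figure D4:**
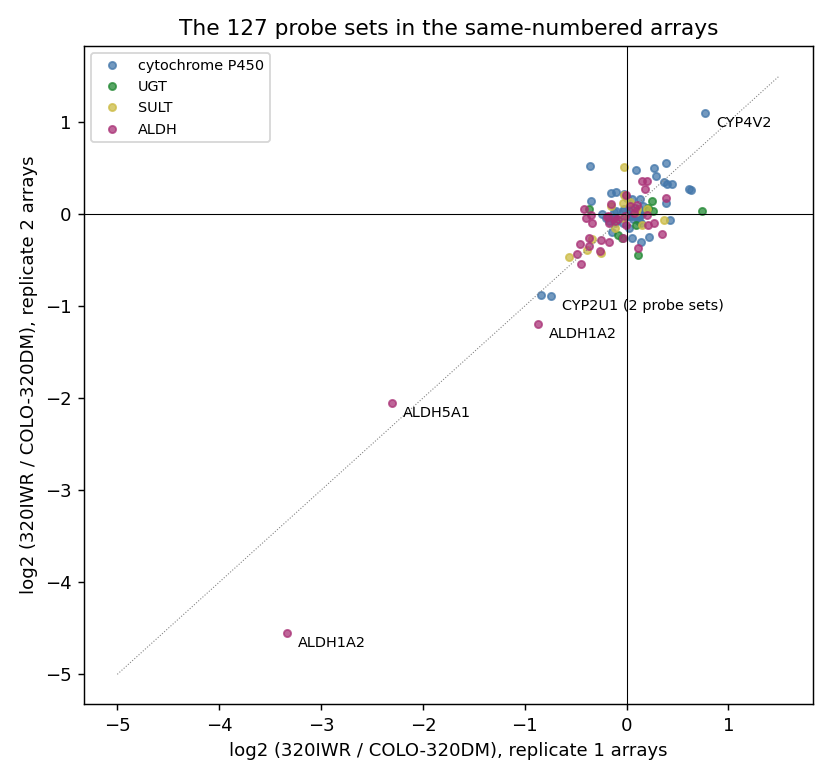
Log2 ratio of 320IWR over COLO-320DM for each of the 127 probe sets, with the replicate 1 arrays on the horizontal and the replicate 2 arrays on the vertical axis, coloured by enzyme family. The dotted line marks equal ratios. Most probe sets lie around 0, while ALDH1A2, ALDH5A1 and CYP2U1 lie below 0 and a CYP4V2 probe set above 0 in both comparisons.

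The cofactors, sensors and neighbouring pathways of these enzymes were read from 7 further lists, and limma called 0 genes in each of them by brightest probe sets, beside 0.592% of all genes. The list of retinoid handling and retinoic acid response, to which ALDH1A2 is linked by its product, had 24 measured genes, 14 higher and 10 lower, with a median of 0.03. At an unadjusted p under 0.05 there were 5 of them, 3 lower and 2 higher, beside 12.3% of all genes. RARB and DHRS3, a retinoic acid receptor and a retinaldehyde reductase, were the lowest of the list and are named here after their values were seen. RARB read 325 and 196 in COLO-320DM cells and 102 and 62.2 in 320IWR cells (log2 fold change -1.66, limma adjusted p = 0.208). DHRS3 read 555 and 331 in COLO-320DM cells and 176 and 115 in 320IWR cells (log2 fold change -1.59, limma adjusted p = 0.205). In both genes each 320IWR array lay below each parental array, as it did for CRABP2, a carrier of retinoic acid (-0.35, limma adjusted p = 0.414). Other genes of the list went the opposite way without overlap. NRIP1, a nuclear receptor corepressor, read 346 and 344 in COLO-320DM cells and 528 and 480 in 320IWR cells (log2 fold change 0.54, limma adjusted p = 0.234), and LRAT, which stores retinol as esters, was dim and had 0.38 (limma adjusted p = 0.492). CYP26A1, which degrades retinoic acid, was dim, with 21.9 and 18.6 against 28.2 and 21.4 (log2 fold change 0.29). TGM2, RARRES1 and STRA6 of the same list were also dim and had 0.03, 0.10 and 0.00. The receptor genes RARA and RARG had 0.05 and -0.05.

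**Figure D5:**
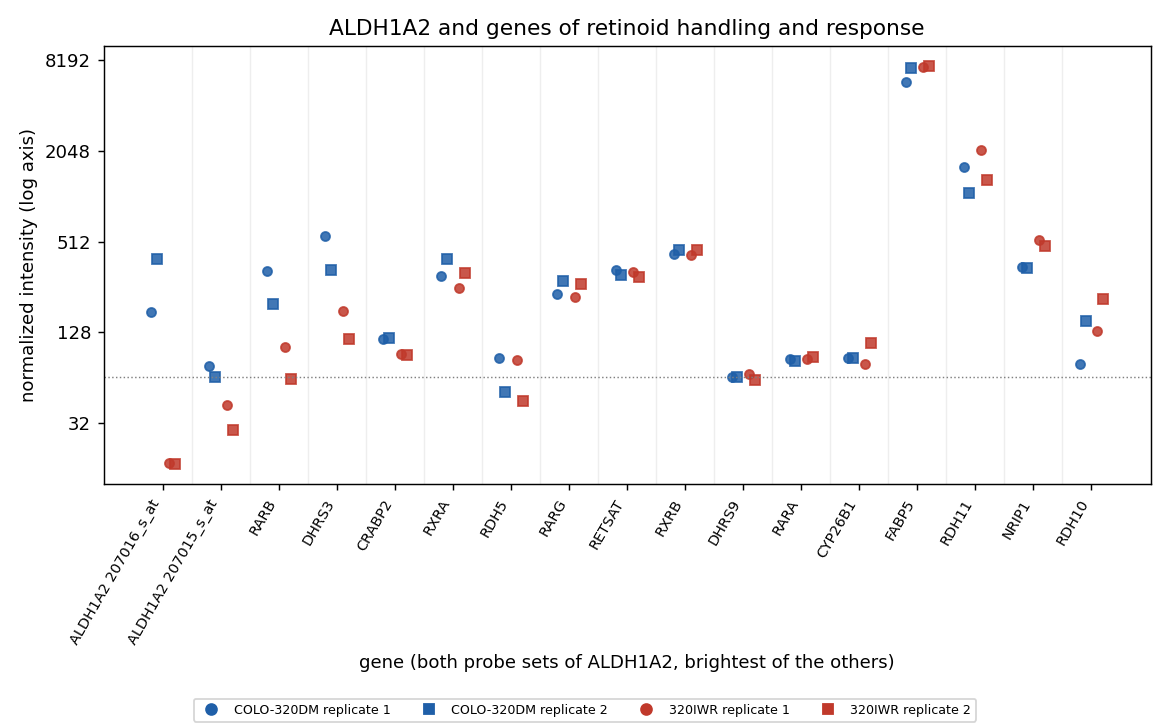
Normalized intensity (log axis) on every array of both probe sets of ALDH1A2 and of the genes of retinoid handling and response that were not dim in both lines, by their brightest probe sets and ordered by log2 fold change. ALDH1A2, RARB, DHRS3 and, by less, CRABP2 are lower on both 320IWR arrays, and NRIP1 is higher on both. The receptor genes RARA, RARG and RXRB overlap or nearly overlap between the lines.

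Of 8 measured genes that supply electrons to P450 enzymes, 5 were lower and 3 higher, with log2 fold changes between -0.26 and 0.23. POR, the reductase on which microsomal P450 enzymes depend, had 0.10. Of 13 sensors of foreign compounds and liver-enriched transcription factors, 7 were higher and 6 lower, with a median of 0.14. AHRR, the repressor of the aryl hydrocarbon receptor, had the lowest value (46.4 and 60.9 against 23.9 and 27.4, log2 fold change -1.06, limma adjusted p = 0.151). Of the 6 genes that make, carry, use or release glucuronic acid, 5 had an unadjusted p under 0.05, where 12.3% of all genes did. UGP2 and UGDH, which make UDP-glucose and UDP-glucuronic acid, were lower, with log2 fold changes of -0.82 and -0.65 (limma adjusted p = 0.252 and 0.306). SLC35D1, a carrier of nucleotide sugars into the endoplasmic reticulum, was higher, with 1.08 (limma adjusted p = 0.187). Of the 9 genes of sulfate supply and removal, 8 were lower, with a median of -0.16, where 45.8% of all genes were lower. PAPSS1, which makes the sulfate donor PAPS, had -0.62 (limma adjusted p = 0.22). Of 17 alcohol dehydrogenases and other aldehyde-handling enzymes, 11 were higher and 6 lower, with a median of 0.04. The lowest was MAOA, the monoamine oxidase that forms aldehydes from serotonin and noradrenaline, with 508 and 218 in COLO-320DM cells and 97.0 and 66.3 in 320IWR cells (log2 fold change -2.05, limma adjusted p = 0.22). Of 15 genes of other P450 families, CYP27C1, which desaturates retinol, was the highest, with 139 and 135 in COLO-320DM cells and 294 and 260 in 320IWR cells (log2 fold change 1.01, limma adjusted p = 0.0851).

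Markers of the cells were read beside these values. Of 11 intestinal epithelial markers KRT20 rose (log2 fold change 1.78, limma adjusted p = 0.0412) and KRT8 and KRT18 fell (-2.26 and -1.67, adjusted p = 0.0155 and 0.0322). Over all genes 0.592% were called in either direction. CDX1, VIL1 and LGALS4 had 0.03, 0.09 and 0.22, and CDH17 and GPA33 had -0.64 and -0.31, none of them called. The summed intensity of all 11 markers was 5625 and 5437 in COLO-320DM cells and 3722 and 3820 in 320IWR cells. CDX2 contributed the most to this sum in both lines. The intestinal factor CDX2 was at 3333 and 2756 on average, whereas the epithelial adhesion genes EPCAM and CDH1 were dim in both lines (29.3 and 17.2 against 15.8 and 18.5). EPCAM was lower without overlap of the arrays (log2 fold change -0.88, limma adjusted p = 0.356), and CDH1 had 0.11. The part of the epithelial markers in the ALDH differences was not tested. Limma called 0 of 8 neuroendocrine, 8 hepatocyte, 5 leukocyte, 8 fibroblast and 8 endothelial markers, and ALB, the hepatocyte product albumin, was at 8.27 and 9.10. In 30 of the 64 member genes (46.9%) the replicates of both lines differed the same way and by more than the lines did, as in 46.9% of all genes.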

How the data were processed

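The 4 arrays, 2 per line, were assigned to COLO-320DM or 320IWR by their labels. The deposited values are probe set intensities that the authors made with RMA (version not given), per the submitters' processing notes. The study's methods name GeneSpring GX for the normalization. The intensities are on a linear scale from 3.51 to 22475, with array medians between 41.0 and 41.8, so log2 was taken. The number of arrays limits the precision. Of 54675 probe sets, 62 controls were left out.

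The lines were compared with limma 3.58.1 in R 4.3.3 (lmFit and eBayes, cell line as the only term) over all 54613 probe sets, with Benjamini-Hochberg adjustment. For a call, the adjusted p had to be under 0.05 and the difference 2-fold or more. The supplied platform annotation gives 41091 probe sets 1 symbol, 1801 several and 11721 none, and all 64 member symbols are spelled the same in the RefSeq gene table. Besides, 20 probe sets of these families carry several symbols and 11 are antisense genes or pseudogenes. None of these was called (log2 fold changes between -0.47 and 0.26). A gene is represented by its brightest probe set, and lists are described by counts and medians. The promoter windows come from RefSeq and were matched by symbol.

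The members and lists were chosen with earlier results of these data known. Named members are those called, those at least 2-fold apart without overlap, the 3 brightest genes of each family, and CYP1A1, CYP1B1, CYP3A4, CYP3A5, UGT1A1, UGT1A6, SULT1A1, ALDH1A1, ALDH1A3 and ALDH2. Genes named outside this rule were chosen after their values were seen. The alternatives changed the normalization (cyclic loess, equal array medians), the model (replicate block, trended robust prior), the arrays (each left out), the probe sets (dim ones, or those with the suffix _x_at or _s_at, left out), the call rule and the summary per gene. The procedure was tested on simulated data.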

Additional observations from a re-analysis of the deposited data

How the results depend on the processing

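The count of member probe sets that rose by limma's test was 0 in every fit listed here, with between 7 and 26 at an unadjusted p under 0.05 in either direction. The count that fell was 1 in the fit reported and 2 with the replicate block, cyclic loess, equal array medians or without dim probe sets (40 member probe sets left). In these fits ALDH1A2 was called beside ALDH5A1, and without either COLO-320DM array ALDH1A2 was called in place of ALDH5A1. It was 0 with a trended robust prior or without the _x_at and _s_at probe sets (71 member probe sets left), between 0 and 1 with an array left out, and 3 by at least 2-fold and no overlap alone. Of all probe sets, 202 were called in the fit reported, 576 with the replicate block, 115 without the _x_at and _s_at probe sets, and between 0 and 63 with an array left out. In these last fits the line with a single array is assumed to vary like the other line.

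The replicate numbers are shared by the lines and the labels tie them to nothing else. The deviations of the same-numbered arrays from their line means correlated with r = 0.661 across all probe sets and 0.801 across those that were not dim, and there are too few pairs to decide whether the numbers pair the arrays. In the lists, the replicate block raised the number of called genes from 0 to 2 for retinoid handling, and from 0 to 1 for foreign-compound sensors, glucuronic acid supply and other P450 families. It changed no other list.

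The median log2 fold change over the member genes was -0.07 without dim probe sets and between -0.05 and 0.07 with an array left out. Medians with an array left out ranged from -0.04 to 0.08 for P450, from -0.07 to 0.20 for SULT and from -0.14 to -0.06 for ALDH genes. Without dim probe sets the ALDH median was -0.18, and 1 UGT gene (0.38) and 1 SULT gene (-0.52) remained. With an array left out the sign turned for these values, none of which was called. The ranges were -0.07 to 0.32 for CYP2R1 239181_at, -0.21 to 0.03 for CYP2U1 1554853_at, -0.26 to 0.05 for CYP2D6, 0.00 to 0.77 for UGT2B15, -0.41 to 0.07 for UGT2B28, -0.13 to 0.31 for SULT4A1 and -0.41 to 0.34 for SULT1B1. They were -0.47 to 0.45 for CYP1B1, -0.09 to 0.17 for CYP3A4, -0.12 to 0.30 for CYP3A5, -0.12 to 0.08 for UGT1A6, -0.21 to 0.34 for ALDH1A3 and -0.19 to 0.13 for CYP4V2 229959_at. The cause of these shifts was not tested.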
